A study of Homo sapiens with 2 samples.

Results

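The RBFOX hexamer UGCAUG was followed in 3'UTR exons where it stands alone, with no other copy within 200 nt. All same-strand copies in hg38 were taken that lay inside the merged exons of the isoform models, in an annotated GENCODE 3'UTR and in no coding sequence, in genes listed in the edit tables of both libraries. This gave 2160 hexamers in 1775 genes, out of 6773 copies in all exons of the genes listed in both tables. Of those genes, 1445 held 1 such hexamer and 330 held more than 1, with at most 5 in a gene.

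The data came from INSCRIBE, in which a recombinant fusion of the cytosine deaminase APOBEC1 and a nanobody against rabbit IgG is brought to an antibody-bound protein in fixed cells and converts nearby cytosines of RNA to uracil. HEK293T cells, a human embryonic kidney line given in the labels as HEK293XT, were fixed with methanol. In the RBFOX2 library the cells received a rabbit antibody against RBFOX2 and then the fusion. In the enzyme-only library they received the fusion without that antibody, and both libraries were read as full-length PacBio cDNA. The study describes further long-read replicates, which were not analysed here. Each group was thus 1 library, so no difference had a replicate check and no p-value is given. All intervals are exact 95% intervals that cover counting error only. Those of cytosine shares and of ratios take cytosines as independent, although listed positions were grouped at some hexamers. Such intervals are likely too narrow, and a lack of overlap between them is not a test. Reads without molecular identifiers are not independent molecules, and none are described for these libraries.

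RBFOX2 is an RNA-binding protein of the RBFOX family, whose RRM domain recognises UGCAUG and the shorter GCAUG. It is best known for regulating alternative splicing from intronic copies of the motif. RBFOX proteins also bind 3'UTRs, where they have been linked to the stability and translation of mRNAs. APOBEC1 deaminates cytosines preferentially after A or U, and an edit therefore marks a cytosine near the bound protein and not the motif itself.

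Of the hexamers below, JUN, OAT and BANF1 are shown for their number of listed positions, H3-3B, YWHAQ and PGRMC1 for their converted reads, PLD3 for its enzyme-only positions and ACTG1 for having none. TARDBP, TRA2B and AP3S1 come from the gene lists and APP from the genes that the study examined. Each line is RNA, 5' to 3', read from hg38, with 12 nt on either side of the hexamer. Capitals mark the hexamer and every cytosine listed in the RBFOX2 library, including those that both libraries listed.
JUN: uugaCcaagaaCUGCAUGgaccuaaCauuC
OAT: aguguuuugaugUGCAUGuguaCuuCCuaa
BANF1: gauuCuCgcuCuUGCAUGccucccccgucc
H3-3B: ugcuuCucaugaUGCAUGuuuCuguauguu
YWHAQ: ggcaaauuaaagUGCAUGucauuuCuuaau
PGRMC1: aauugaCuuaaCUGCAUGauuucuguuuua
TARDBP: aagugaauucuuUGCAUGuucaaaaCggaa
TRA2B: aaaaguauguuuUGCAUGuauuuuuuuaCa
AP3S1: ccaaguauguauUGCAUGaaaaCauuauga
APP: guauCaaacuagUGCAUGaauagauuCuCu
PLD3: aagaaaugggggUGCAUGcugggccuggcc
ACTG1: cguagcauuugcUGCAUGgguuaauugaga
The JUN, PGRMC1 and BANF1 hexamers had listed cytosines within 2 nt of their first base, on the 5' side. In OAT, YWHAQ, TARDBP, TRA2B and AP3S1 the listed cytosines of the printed stretch lay on the 3' side alone. PLD3 and ACTG1 had none in this stretch.

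The edit tables named 10199 genes in the RBFOX2 library, against 10182 in the enzyme-only library, with 2431345 and 2233600 reads over the listed genes and medians of 96 and 87 reads a gene. A position was listed only where its converted reads exceeded 0.002 of the gene's reads, so that a single converted read was no longer listed in genes of 500 reads or more. Reads were given per gene model, not at the position. RBFOX2 itself was in both tables, with 247 and 221 reads, and RBFOX1 and RBFOX3 were in neither. Of 7 genes known in HEK293 lines, 3 were listed in both tables (NEFL, NEFM and KRT18). VIM was listed in the RBFOX2 table alone and KRT8 in the enzyme-only table alone. Of 7 kidney tubule genes, LRP2 was listed in both, with 8 and 12 reads, and the other 6 in neither. A gene without a listed position has no entry, so absence from a table is not absence of expression.

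Around the hexamers, the RBFOX2 library listed positions at more of them and in denser groups than the enzyme-only library did. Counted within 50 nt, and leaving out the positions that both libraries listed, 800 of 2160 hexamers had at least 1 RBFOX2 position (37.0%, 35.0% to 39.1%) and 468 had at least 1 enzyme-only position (21.7%, 19.9% to 23.5%). Windows of the same width of 106 nt, tiled over 3'UTR exons more than 200 nt from any copy, gave 28.8% and 24.5% over 62777 windows. By this count the hexamers lay above the windows in the RBFOX2 library and below them in the enzyme-only library. The windows came from all genes listed in both tables and were not matched to the genes with a hexamer. Per cytosine, the enzyme-only share was 1.54% within 50 nt of the hexamers. Beyond 200 nt it was 1.37% in 3'UTR exons of the same genes and 1.80% in all 3'UTR exons. Median cytosine numbers were close, at 20 around hexamers and 21 in the windows. At 102 hexamers the window was cut short by an exon edge. Positions listed in both libraries, 317 in number, lay near 211 of the hexamers.

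Hexamers with RBFOX2 positions and no enzyme-only position numbered 523, or 24.2% (22.4% to 26.1%), against 16.0% of the tiled windows. The opposite pattern was found at 191 hexamers, or 8.84% (7.68% to 10.1%), against 11.6% of the windows. Positions of both libraries lay at 277 hexamers (12.8%, and 12.9% of the windows), and 1169 hexamers (54.1%) had none. At least 3 RBFOX2 positions without any enzyme-only position were found at 159 hexamers, or 7.36% (6.30% to 8.54%), against 2.52% of the windows. The reverse, at least 3 enzyme-only positions without an RBFOX2 position, was found at 12 hexamers (0.556%, against 1.04% of windows).

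The gap to the windows widened with the number of positions. At least 5 RBFOX2 positions were listed at 114 hexamers (5.28%) and in 1.40% of the windows, and at least 8 at 19 hexamers (0.880%) and in 0.107% of the windows. In the enzyme-only library, at least 5 were listed at 10 hexamers (0.463%) and in 0.593% of the windows. No hexamer had 8 enzyme-only positions, and 0 of 2160 allows a share of up to 0.139%, taken as 3 counts, or 0.171% by the exact interval.

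**Figure D1:**
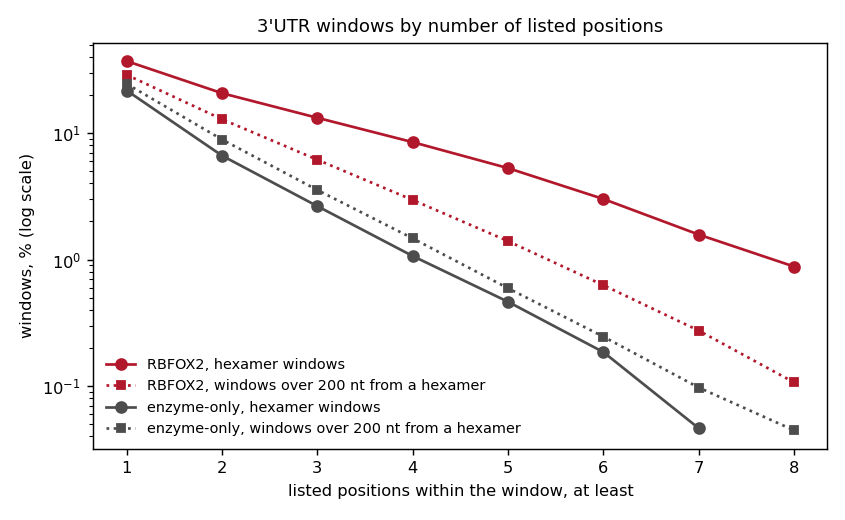
Share of 106-nt windows (y axis, percent, log scale) with at least the number of listed positions on the x axis, for windows around the 2160 hexamers (circles, solid) and 62777 windows more than 200 nt from any copy (squares, dotted), in the RBFOX2 (red) and enzyme-only (grey) libraries. The red solid line runs from 37.0% to 0.880% and lies above its dotted line throughout, while the grey solid line lies below its own and ends at 7 positions.

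Hexamers edited in one library were edited more often in the other. Enzyme-only positions lay at 34.6% (31.3% to 38%) of the 800 hexamers with RBFOX2 positions and at 14.0% (12.2% to 16.0%) of the 1360 without. The same split of the tiled windows gave 44.7% and 16.3%. The gene reads and the share of isoforms with the hexamer, given further on, moved with the positions of both libraries, and their part in this association was not tested.

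Per cytosine, the signal was graded with distance. Within 50 nt, 1961 of 45917 cytosines were listed in the RBFOX2 library (4.27%, 4.09% to 4.46%), against 706 in the enzyme-only library (1.54%, 1.43% to 1.65%), a library ratio of 2.78 (2.55 to 3.03). At 51 to 100 nt the listed shares were 3.54% and 1.73%, and from there to 200 nt they were 3.07% and 1.81%. In 3'UTR exons of the same genes, beyond 200 nt from any copy, they were 1.94% and 1.37%. The library ratio fell over these zones from 2.78 to 2.05, 1.70 and 1.41. Over all 3'UTR exons away from a copy it was 1.34 (1.32 to 1.36), which is the level that the RBFOX2 library had without a nearby hexamer.

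Cytosines within 200 nt of a hexamer can include coding ones of the same exon, which were not set apart. Set against their own flanks at 51 to 200 nt, cytosines within 50 nt were listed 1.32 times as often in the RBFOX2 library (1.25 to 1.39). In the enzyme-only library the same ratio was 0.865 (0.793 to 0.942), below 1, but its interval held 1 when positions listed in both libraries were kept (0.970, 0.902 to 1.04). The single cytosine of the hexamer itself stood apart from its surroundings. It was listed at 21 hexamers in the RBFOX2 library (0.973%, 0.603% to 1.48%), against at 17 in the enzyme-only library (0.787%), a ratio of 1.24 (0.62 to 2.49). That cytosine follows a G, and cytosines after G, itself included, were listed at 1.41% and 1.04% within 50 nt.

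The profile was not symmetric in the RBFOX2 library. At 11 to 20 nt, 5.73% of cytosines 3' of the hexamer were listed and 3.66% of those 5' of it, a ratio of 1.57 (1.28 to 1.92), while the enzyme-only library gave 0.947 (0.667 to 1.34). The library ratio was highest in this 3' bin, at 3.73 (2.84 to 4.96). At 1 to 10 nt the ratio of the 3' to the 5' side was 0.911 (0.751 to 1.10), with library ratios of 3.30 on the 5' side and 3.20 on the 3' side. Over 1 to 50 nt the 3' side exceeded the 5' side by a ratio of 1.16 (1.06 to 1.27) in the RBFOX2 library, against 0.961 (0.825 to 1.12) in the enzyme-only library. At 21 to 30 nt the RBFOX2 ratio was 1.30 (1.06 to 1.58), with 5.26% on the 3' side and 4.06% on the 5' side, and at 31 to 40 nt it was 1.03 (0.828 to 1.28). With bins of 20 nt, the ratio of the first bin was 1.18.

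**Figure D2:**
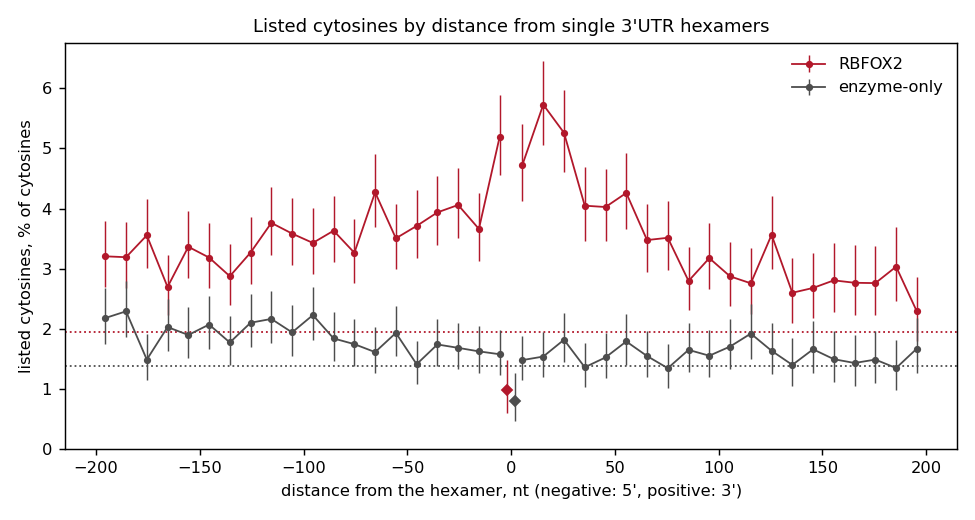
Listed share of cytosines (y axis, percent) by distance from the hexamer in nt (x axis, bins of 10 nt, negative 5') in the RBFOX2 (red) and enzyme-only (grey) libraries, with exact 95% intervals, the cytosine inside the hexamer as diamonds and the level of 3'UTR exons of the same genes beyond 200 nt as dotted lines. The red profile rises toward the hexamer and reaches 5.73% at 11 to 20 nt on the 3' side, while the grey profile stays below 2.5% throughout.

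The gain in the RBFOX2 library was largest at cytosines in the sequence context that APOBEC1 prefers. Within 50 nt, cytosines after A were listed at 8.54% in the RBFOX2 library, against 2.06% in the enzyme-only library, a ratio of 4.15 (3.55 to 4.86). After U the shares were 6.78% and 2.12%, a ratio of 3.20 (2.77 to 3.70). After G the ratio was 1.35 (1.07 to 1.71), and after C it was 1.19 (0.93 to 1.52), an interval that holds 1. Near to flank ratios of the RBFOX2 library were 1.38 after A and 1.48 after U, against 1.14 (0.944 to 1.37) after G and 1.12 (0.919 to 1.36) after C. The counts after G within 50 nt include the hexamer's own cytosine, 2159 in number and listed at 0.973% in the RBFOX2 library. The flanks hold none of these. Their share lies below the 1.41% of all cytosines after G within 50 nt, so they lower the near to flank ratio after G. The values after G were not recomputed without them.

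Positions near the hexamer also carried more converted reads. In the RBFOX2 library 30.5% (28.5% to 32.6%) of the 1961 positions within 50 nt had at least 2 converted reads. At 51 to 200 nt the share was 23.5%, and beyond 200 nt in 3'UTR exons of the same genes it was 17.5%. The enzyme-only library gave 10.3%, 11.2% and 10.4%, with no such gradient. At least 5 converted reads were counted at 83 RBFOX2 positions and at 1 enzyme-only position within 50 nt. The near to flank ratio of the RBFOX2 library rose with the number of converted reads, from 1.20 for 1 read to 1.58 for 2, 1.77 for 3 to 4 and 2.31 (1.70 to 3.14) for 5 or more. Deep genes list only positions of several reads. In genes of at most 500 reads in both libraries the share with at least 2 converted reads was 19.8%.

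The hexamers with the most RBFOX2 positions were those of JUN, OAT, ARL2BP, TSC22D1 and STMP1, with 10 each. They were followed by BANF1, OLA1, UBE2B, COPS7A and CMPK1 with 9, and by RNF7, ITM2C, ZCCHC12 and BLMH with 8. In all, 19 hexamers had at least 8 RBFOX2 positions, and 11 of these had no enzyme-only position. The 9 hexamers tied at 8 were ordered by converted RBFOX2 reads, and 15 hexamers were taken, of which 14 are named here. Of these 15, 10 had no enzyme-only position and the other 5 had 1 or 2. Enzyme-only positions lay at 21.7% of all 2160 hexamers and at 34.6% of the 800 with RBFOX2 positions. Their absence thus does not set the 15, or the 19, apart. These 15 hexamers held 135 RBFOX2 positions with 341 converted reads, and 8 enzyme-only positions of 1 converted read each. They were chosen by their RBFOX2 positions, so this contrast between the libraries follows from the choice. Of the RBFOX2 positions, 110 followed A or U, 15 followed G and 10 followed C. The positions lay on both sides, 63 of them 5' and 69 of them 3' of the hexamer, with 3 inside it. A further 18 positions around these hexamers were listed in both libraries and are not in these counts.

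JUN encodes a subunit of the AP-1 transcription factor. Its hexamer lay at chr1:58781766-58781771 on the minus strand, 303 nt into the annotated 3'UTR stretch of its exon. It was in 8 of 11 isoforms of a gene with 1280 RBFOX2 and 1309 enzyme-only reads. Of 21 cytosines counted, 10 were listed in the RBFOX2 library, with 3 to 17 converted reads each, and none in the enzyme-only library. The most edited one, 8 nt on the 3' side, had 17 converted reads (1.33% of the gene's reads), and the one directly 5' of the hexamer had 8 (0.625%). A cytosine 12 nt on the 3' side was listed in both libraries, with 8 and 3 converted reads.

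OAT encodes the mitochondrial ornithine aminotransferase. Its hexamer at chr10:124397702-124397707 on the minus strand was present in all 16 isoforms and had 10 RBFOX2 positions with 41 converted reads, of 442 gene reads. The highest, 5 nt on the 3' side, had 10 converted reads (2.26%). Its enzyme-only positions were 2, of 1 converted read each, and 1 of them was the cytosine of the hexamer. BANF1, a chromatin protein that links DNA to the nuclear envelope, had 9 RBFOX2 positions with 3 to 7 converted reads around chr11:66003954-66003959 and no enzyme-only position, with 1099 and 1028 gene reads. Of these 9, the 3 nearest lay 2, 6 and 8 nt on the 5' side.

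The other hexamers of this group lay in genes of varied function. ARL2BP, a partner of the GTPase ARL2, had 10 RBFOX2 positions with 18 converted reads, in a gene with 423 and 351 reads. TSC22D1, a leucine zipper regulator of transcription, had 10 with 17, although its hexamer had a computed unpaired probability of 0.503%, against 70.3% at BANF1. STMP1, a short mitochondrial peptide, had 10 with 14. The ATPase OLA1 had 9 with 31, the COP9 signalosome subunit COPS7A had 9 with 13, and the nucleotide kinase CMPK1 had 9 with 10. COPS7A also had 2 enzyme-only positions and 5 listed in both libraries. Of those with 8 positions, the membrane protein ITM2C had 18 converted reads, the zinc knuckle protein ZCCHC12 had 16 and the cysteine protease BLMH had 12. Gene reads of ZCCHC12 were 135 and 118, and those of UBE2B 151 and 85.

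The largest sum of converted reads was found at H3-3B, which encodes histone H3.3. It had 99 converted RBFOX2 reads at 4 positions around chr17:75778346-75778351 and no unshared enzyme-only position, in a gene with 6281 and 5280 reads. Another position, 18 nt on the 3' side, was listed in both libraries with 51 and 19 converted reads, or 0.812% of the RBFOX2 reads. YWHAQ, the 14-3-3 theta protein, had 58 converted reads at 5 positions, the nearest 7 nt on the 3' side with 18. GNL3, which encodes the nucleolar GTPase nucleostemin, had 39 converted reads at 5 positions. PPP2CA, the catalytic subunit of protein phosphatase 2A, had 33 at 6 positions in an exon shared with a second annotated gene. Neither of these 2 had an unshared enzyme-only position.

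Of the 8 hexamers with the most converted RBFOX2 reads, 6 had no unshared enzyme-only position, and OAT and PGRMC1 had some. Of all 2160 hexamers, 468 (21.7%) had such a position, so the 8 lay near the level of all. PGRMC1 encodes a membrane-associated haem-binding protein. The RBFOX2 library listed 5 positions there with 46 converted reads, of which 22 fell on the cytosine directly 5' of the hexamer (2.02% of gene reads). The enzyme-only library listed 4 other positions with 9 converted reads. Both kinds of position lay within the same window there.

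**Figure D3:**
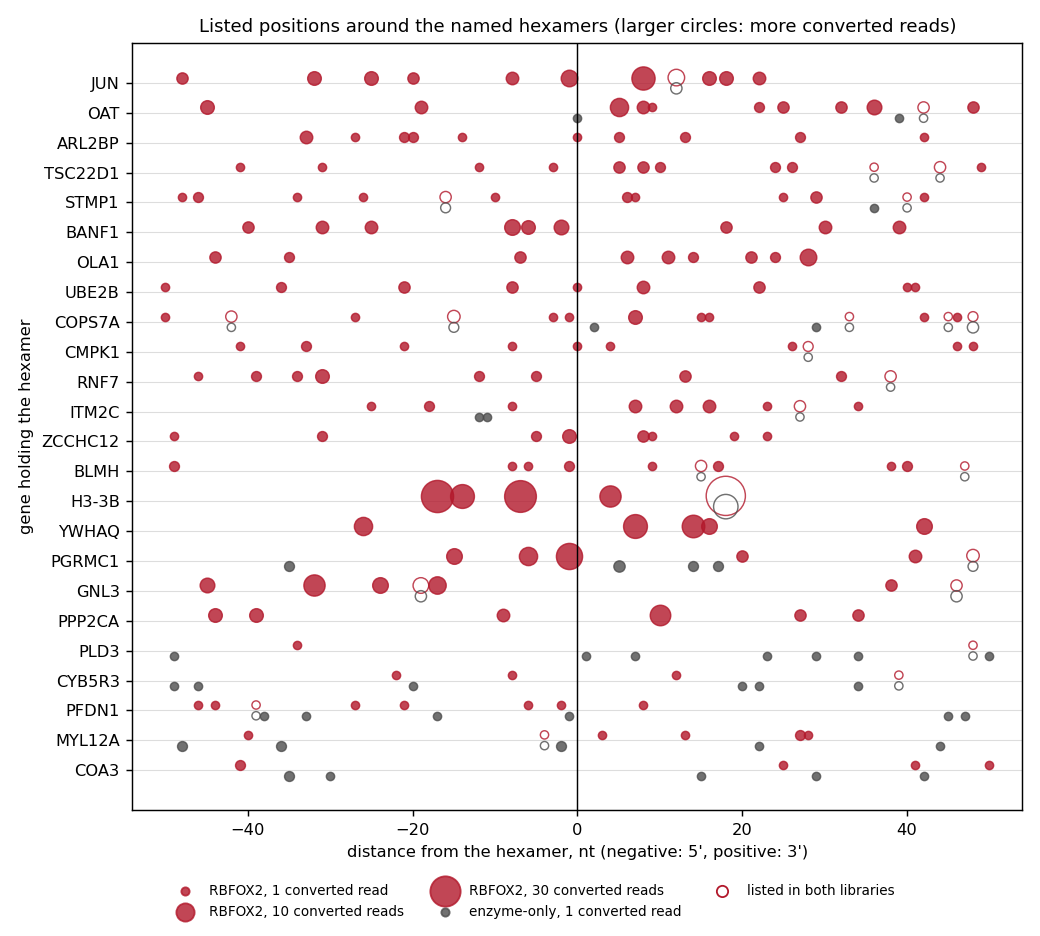
Listed positions within 50 nt (x axis, nt from the hexamer, negative 5') around the hexamers with the most RBFOX2 positions, the most converted RBFOX2 reads or the most enzyme-only positions (rows, by gene, for those named in the text), with RBFOX2 positions in red above each line, enzyme-only positions in grey below it, larger circles for more converted reads and open circles for positions listed in both libraries. JUN, H3-3B and YWHAQ show large red circles within 20 nt of the hexamer, while PLD3 and CYB5R3 show mostly small grey ones.

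The hexamers with the most enzyme-only positions lay in PLD3 (7), CYB5R3 and PFDN1 (6 each), and MYL12A and COA3 (5 each). In all, 10 hexamers had at least 5 enzyme-only positions, and 9 of these also had RBFOX2 positions. Of the 468 hexamers with any enzyme-only position, 277 had RBFOX2 positions too. The 6 tied at 5 were ordered by converted enzyme-only reads and then by gene symbol, and 6 hexamers were taken in all, of which 5 are named here. These 6 had 35 enzyme-only positions, and 31 of the positions had 1 converted read. The median content of A and U in the flanks was 50% at the 10 hexamers with at least 5 enzyme-only positions and 61.0% at the 19 with at least 8 RBFOX2 positions. At PLD3, which encodes a lysosomal exonuclease, A and U made up 30% of the flanks. Its hexamer at chr19:40378397-40378402 was in all 22 isoforms and had 7 enzyme-only positions and 1 RBFOX2 position, each of 1 converted read.

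Some hexamers in deeply read genes had no listed position. ACTG1, cytoplasmic gamma-actin, had 5968 and 5757 gene reads. Its hexamer at chr17:81510656-81510661 was in all 30 isoforms, 28 nt into the 3'UTR stretch, and none of 28 cytosines was listed in either library. At that depth a position needed at least 12 converted reads to be listed. The other 4 such hexamers of the deepest genes were in few of the gene's isoforms. HMGN2 (10607 and 8740 reads) held the hexamer in 3 of 25 isoforms and PPIA (4732 and 4823 reads) in 3 of 30. The hexamers named by RPL4 and SNAPC5 lay in 1 shared gene model with 5106 and 4212 reads, in 8 and 2 of its 49 isoforms, so these reads cannot be assigned to either gene.

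Among genes that the study itself examined, APP, the amyloid precursor protein, had 5 RBFOX2 positions of 2 or 3 converted reads around chr21:25881390-25881395 and no unshared enzyme-only position, with 637 and 630 gene reads. A further position, 28 nt on the 3' side, was listed in both libraries with 5 and 3 converted reads. DEPDC1, a DEP domain protein, had 2 hexamers. The one at chr1:68475041-68475046, in 4 of 20 isoforms, had 1 RBFOX2 position, and the one at chr1:68475608-68475613, in 14 of 20, had 1 enzyme-only position, each of 1 converted read. The hexamers of OGT and of RBFOX2 itself had no position, and the latter was in 1 of 11 isoforms. DCUN1D4 and PKM held no single hexamer in a 3'UTR exon.

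Hexamers with and without RBFOX2 positions differed in how many isoforms held them. The median share of the gene's isoforms with the hexamer was 77.3% (quartiles 50% and 100%) for the 800 hexamers with RBFOX2 positions and 37.5% (14.3% and 77.8%) for the 1360 without. The enzyme-only split showed the same direction, with 81.8% and 44.4%. From the lowest to the highest tertile of this share, RBFOX2 positions were found at 12.9%, 44.7% and 53.5% of hexamers, and enzyme-only positions at 5.0%, 25.8% and 34.2%. A hexamer in few isoforms is covered by an unknown part of the gene's reads, and that part in these differences was not tested.

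Edited hexamers also lay closer to the start of their annotated 3'UTR stretch, in both libraries. That stretch was followed upstream within the exon, so its start is not always that of the whole 3'UTR. Median distances were 395.5 nt with and 649.5 nt without RBFOX2 positions, and 350 nt with and 601 nt without enzyme-only positions. Median gene reads in the library with fewer were 168 and 121 in the RBFOX2 split, and 176 and 127 in the enzyme-only split. The content of A and U in the flanks went in opposite directions. It was 62.0% with and 58.0% without RBFOX2 positions, and 58.0% with and 60.0% without enzyme-only positions. So did the number of cytosines in the window, with medians of 19 and 21 in the RBFOX2 split and 22 and 20 in the enzyme-only split. The computed probability that the hexamer is unpaired, from folding 206 nt, differed little, with medians of 32.7% and 33.9% in the RBFOX2 split.

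The same features were compared inside genes that held several single hexamers, where gene reads are shared. Of 330 such genes, 42 had RBFOX2 positions at all of their hexamers, 121 at some and 167 at none. In the 121 mixed genes, the edited hexamers were in more isoforms in 66, in fewer in 16 and in as many in 39. They lay nearer to the start of the 3'UTR stretch in 80 of 121 genes. The flanks were richer in A and U in 68 genes and poorer in 47, with a median difference of 2.00 percentage points. The unpaired probability was lower at the edited hexamers in 73 of 121 genes, with a median difference of -5.31 percentage points. In the 93 genes mixed for enzyme-only positions, the edited hexamers were in more isoforms in 52 and in fewer in 13. They were nearer to the start of the 3'UTR stretch in 60, and were richer in A and U in 40 and poorer in 51. The edited hexamers held more cytosines in 53 of these 93 genes and fewer in 38, against 60 and 57 of the 121. The isoform share and the distance thus moved alike in both libraries, and the content of A and U, counted by hexamers, did not. The part of the cytosine number in that was not tested.

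Counted by hexamers, RBFOX2 positions became more frequent with the content of A and U around the hexamer, and enzyme-only positions less frequent. By tertiles of that content, RBFOX2 positions were found at 31.5%, 34.3% and 45.3% of hexamers, and enzyme-only positions at 25.4%, 21.1% and 18.5%. Per cytosine within 50 nt, the RBFOX2 listed share was 2.16%, 4.32% and 8.49% over these tertiles. In the flanks the RBFOX2 share rose too, from 2.02% to 3.31% and 5.19%. The enzyme-only share per cytosine within 50 nt was 1.48%, 1.53% and 1.66%, and so did not fall. The near to flank ratio of the RBFOX2 library was 1.07 (0.958 to 1.20) in the lowest tertile, 1.31 (1.18 to 1.44) in the middle tertile and 1.64 (1.51 to 1.78) in the highest tertile. The library ratio was 1.46, 2.83 and 5.12 within 50 nt, and 1.15, 2.02 and 2.61 in the flanks. Restricted to cytosines after A or U, a setting chosen after seeing the data, the near to flank ratio was 1.14, 1.38 and 1.67, so the order held within the preferred context. In the enzyme-only library it was 0.837, 0.916 and 0.823. The number of cytosines ran the other way, with RBFOX2 near to flank ratios of 1.67, 1.43 and 1.10 from the fewest to the most cytosines.

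Depth and predicted pairing went with the near to flank ratio less. By tertiles of gene reads the RBFOX2 ratio was 1.28, 1.36 and 1.32, with overlapping intervals, although the share of hexamers with a position rose from 27.6% to 41.7% and 41.8%. By tertiles of the unpaired probability it was 1.28, 1.37 and 1.32. At the 239 hexamers of genes that had 500 reads or more in each library, single converted reads are not listed. There the library ratio was 6.41 (4.56 to 9.23) within 50 nt and 3.02 in the flanks. The RBFOX2 near to flank ratio there was 1.63 (1.39 to 1.91). In the lowest tertile of the isoform share the RBFOX2 near to flank ratio was 1.04 (0.849 to 1.26), against 1.36 and 1.35 in the other tertiles. The enzyme-only ratio was also lowest there, at 0.548 (0.388 to 0.759), against 0.872 and 0.923. From the lowest tertile up, the library ratio was 3.20, 3.16 and 2.48 within 50 nt, and 1.69, 2.03 and 1.70 in the flanks. The RBFOX2 excess over the control library near the hexamer was thus not smaller in the lowest tertile.

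**Figure D4:**
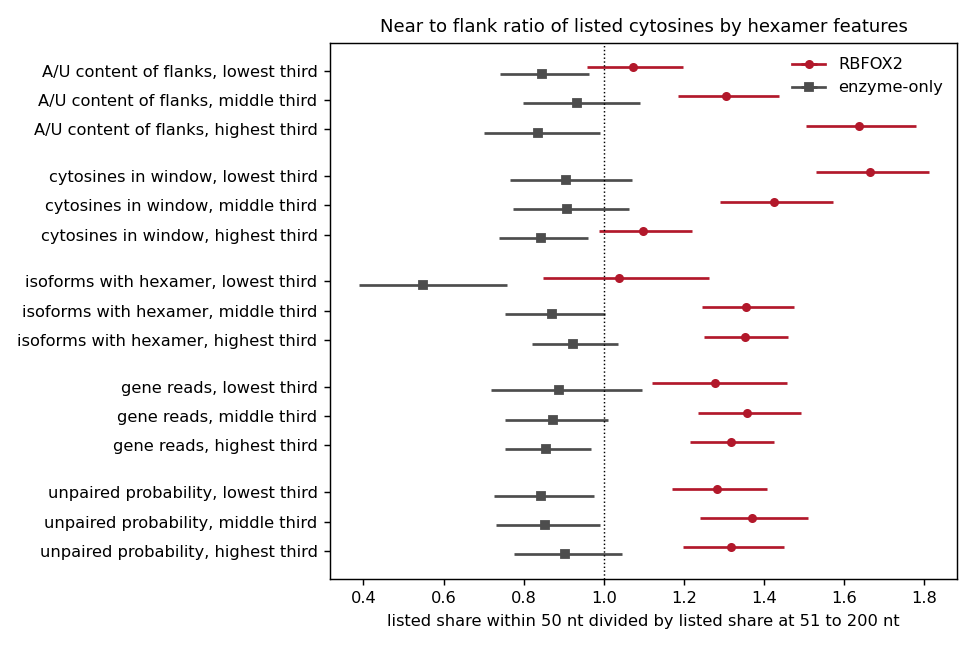
Listed share of cytosines within 50 nt divided by that at 51 to 200 nt (x axis, ratio) for hexamers in tertiles of 5 features (rows), in the RBFOX2 (red circles) and enzyme-only (grey squares) libraries, with exact 95% intervals. The red ratio rises from 1.07 to 1.64 with the content of A and U and falls from 1.67 to 1.10 with the number of cytosines, while each grey point lies below 1.

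The bases next to the hexamer gave smaller contrasts. With U on the 3' side (796 hexamers) RBFOX2 positions were found at 39.8% and the near to flank ratio was 1.47 (1.34 to 1.61), and with G there (471 hexamers) the values were 35.5% and 1.16 (1.03 to 1.32). With A on the 5' side the library ratio within 50 nt was 4.01 (3.26 to 4.97), and with G there it was 2.20 (1.81 to 2.68). These intervals do not overlap, but they take cytosines as independent, 4 bases on 2 sides were compared and none was tested.

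Pentamers that RBFOX proteins are known to bind less strongly than GCAUG were searched on the same strand within 50 nt. They were GCACG (2.22% of the windows), GCUUG (8.89%), GAAUG (12.5%), GUUUG (16.0%), GUAUG (10.1%), GUGUG (16.7%) and GCCUG (16.4%), and 1 window can hold several. A match describes the letters and is not a binding site. RBFOX2 positions lay at 46.7% of the 345 hexamers with a GUUUG and 35.2% of those without, and at 42.9% of the 219 with a GUAUG and 36.4% of those without. With GCCUG present (355 hexamers) they lay at 26.5%, against 39.1% without, and the near to flank ratio was 0.909 (0.758 to 1.09), against 1.39. These pentamers differ in their content of U and C, which moved with the RBFOX2 positions as given above. With the other 4 the shares ran from 30.6% to 39.5%. With any of the 7 pentamers present the share was 36.1%, and with none 38.3%, with overlapping intervals.

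The intact hexamer stood first among 19 hexamers in the ratio between the libraries. At 1 to 50 nt from UGCAUG the ratio of RBFOX2 to enzyme-only listed cytosines was 2.82 (2.58 to 3.08). The 18 hexamers that differ from it by a single base, taken in 3'UTR exons more than 200 nt from any intact copy, ranged from 1.09 to 1.78. The next was AGCAUG, which keeps the GCAUG core, at 1.78 (1.61 to 1.97), followed by UGCAUA at 1.60 (1.44 to 1.78) and by UGUAUG and UACAUG at 1.53 each. The other hexamers that keep GCAUG gave 1.28 (GGCAUG, 1.14 to 1.42) and 1.21 (CGCAUG, 0.956 to 1.53), intervals that hold the 1.34 of all 3'UTR exons away from a copy. The interval of UGCAUG overlapped none of the others, and AGCAUG overlapped its neighbours.

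**Figure D5:**
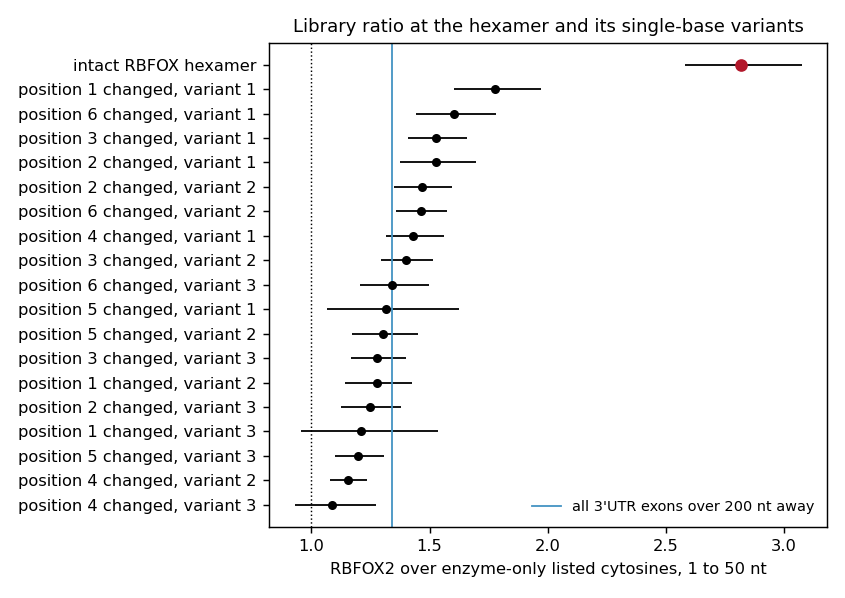
Ratio of RBFOX2 to enzyme-only listed cytosines at 1 to 50 nt (x axis) for the intact hexamer (red) and its 18 single-base variants (rows, by the position changed), with exact 95% intervals, 1 as a dotted line and the level of all 3'UTR exons more than 200 nt from a copy as a blue line. The intact hexamer lies at 2.82 and the variants between 1.09 and 1.78.

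Single hexamers in 3'UTR exons were set against those in coding exons and against 3'UTR hexamers with a neighbour. The 2224 single coding hexamers had RBFOX2 positions at 30.3% and enzyme-only positions at 24.1%. Their library ratio within 50 nt was 1.55 (1.42 to 1.69), below the 2.78 of the 3'UTR and with no overlap of intervals. Their near to flank ratio in the RBFOX2 library was 1.41 (1.30 to 1.53), an interval that holds the 1.32 of the 3'UTR. The enzyme-only ratio at coding hexamers was 1.10 (1.00 to 1.21), against 0.865 in the 3'UTR. The RBFOX2 library had lower listed shares at coding hexamers, both near the hexamer (2.48%) and in the flanks (1.76%), while the enzyme-only share near the hexamer was 1.60% in coding and 1.54% in 3'UTR exons. The 367 3'UTR hexamers with a neighbour within 200 nt had RBFOX2 positions at 35.7%, a library ratio of 3.33 (2.63 to 4.26) and a near to flank ratio of 1.41 (1.21 to 1.65), all overlapping the values of the single ones. Windows of neighbouring hexamers can overlap, and each cytosine was assigned to the nearest copy.

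By gene group, the hexamers in genes of the ubiquitin system had RBFOX2 positions at 34 of 81 (42.0%) and enzyme-only positions at 17 (21%). Those of kinases and phosphatases had them at 25 of 59 (42.4%) and 11 (18.6%), and those of RAB GTPases and vesicle transport at 24 of 62 (38.7%) and 16 (25.8%). These lie near the 37.0% and 21.7% of all hexamers. Regulators of mRNA stability and translation had RBFOX2 positions at 13 of 39 (33.3%), splicing regulators at 9 of 38 (23.7%), chromatin regulators at 6 of 31 (19.4%) and zinc finger genes at 5 of 32 (15.6%). Enzyme-only positions in these groups lay, in that order, at 9 (23.1%), 5 (13.2%), 6 (19.4%) and 2 (6.25%) of the hexamers. In chromatin regulators both libraries thus had the same number. Median gene reads in the library with fewer were 211, 332, 220 and 50 in these groups, against 135 for all hexamers.

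Among splicing regulators, TARDBP, which encodes TDP-43, had 7 RBFOX2 positions of 2 to 6 converted reads around chr1:11022983-11022988 and no enzyme-only position, in a gene with 626 and 531 reads. TRA2B, an SR-like splicing activator, had 6 positions with 23 converted reads and no enzyme-only position. RBM18, an RRM protein, had 1. EIF2S3, the gamma subunit of the initiation factor eIF2, had 6 positions with 8 converted reads, FMR1, an RNA-binding repressor of translation, had 3 with 5, and LSM5, a subunit of the LSM complexes of mRNA decay and splicing, had 3 with 3. In vesicle transport, AP3S1, a subunit of the AP-3 adaptor, had 7 positions with 30 converted reads, the highest of them 9 reads (2.36% of gene reads) 13 nt on the 3' side. A further 3 positions there were listed in both libraries. VPS29, a retromer subunit, and the sorting nexin SNX12 had 6 each.

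In the ubiquitin system, the conjugating enzyme UBE2B had 9 RBFOX2 positions with 19 converted reads, the RING protein RNF7 had 8 with 19, and the ligase TRIM32 had 8 with 9, in a gene of 45 and 28 reads. In the kinases and phosphatases, PPP2CA led with 6 positions, followed by MAP2K1, a MAP kinase kinase, and PPP2R3C, a regulatory subunit of protein phosphatase 2A, with 4 each. HMGA2, an architectural chromatin protein, had 2 positions, and CHD3 and SIRT1 had 1 each. The zinc finger genes ZNF326 and ZNF519 had 2 and ZNF189 had 1, all of 1 converted read. None of these hexamers had an unshared enzyme-only position, which the choice of the examples required.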

How the data were processed

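The deposited edit tables give, per library, count columns (converted reads at a position, and reads of its gene), and the fraction of the gene's reads converted, all made by the authors. The authors aligned full-length PacBio reads to hg38 with pbmm2 and identified conversions with custom code, SNPs removed. A deposited confidence score was not used. The labels and the methods name different library kits. The deposited isoform models carry no read numbers.

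Hexamers were located in hg38 with GENCODE release 44. The 3'UTR stretch of a hexamer was followed upstream to the edge of the merged exon or to a base not annotated as 3'UTR alone. Positions of chromosomes 1 to 22, X and Y were used, 225598 in all. Positions that both libraries listed entered neither counts nor denominators. Near means within 50 nt of the hexamer in the same merged exon and flank means 51 to 200 nt in that exon. Both can include coding cytosines, while the zones beyond 200 nt hold 3'UTR cytosines alone. Shares have exact Clopper-Pearson intervals and ratios exact binomial ones (SciPy 1.17.1). Pairing was computed with ViennaRNA 2.7.2. The calculation was tested on simulated data. With 1 library a group there was no test. The members, gene lists and named hexamers were chosen with earlier results of these data known. Named are the 15 hexamers with the most RBFOX2 positions, the 8 with the most converted RBFOX2 reads, the 6 with the most enzyme-only positions, the 5 without positions in the deepest genes, genes the study examined, and up to 3 a gene list with RBFOX2 and no enzyme-only positions. Ties were ordered by converted reads of the same library, then by symbol. Of these, 2 hexamers are not reported here. Alternatives changed the window, the read minimum, the shared positions, the gene depth, the spacing and the annotation priority.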

Additional observations from a re-analysis of the deposited data

Results flagged for a closer look

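A further 9216 single hexamers in annotated 3'UTRs lay outside the isoform exons of genes listed in both tables and entered no comparison above. RBFOX2 positions lay within 50 nt of 58 of them (0.629%, 0.478% to 0.813%), 89 positions in all, and enzyme-only positions within 50 nt of 24 (0.260%, 0.167% to 0.387%), 29 positions in all. They are given because the RBFOX2 number exceeds that of the control library in data that the comparisons left out. These sites include genes listed in only 1 table, and their read depth was not known.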

How the results depend on the processing

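The results were recomputed under 11 alternative settings, giving 106 values, of which 76 stayed inside the main interval (for counts, within 1.5 times) and 30 moved. No ratio crossed 1, but the interval of the enzyme-only near to flank ratio came to hold 1 in a pair of settings named below, and UGCAUG stayed first of 19 wherever it was recomputed. The cause of each move was not tested, except that a narrower window or a higher read minimum lists less by construction.
With a window of 20 nt, 24.4% and 11.1% of hexamers had RBFOX2 and enzyme-only positions, and enzyme-only positions lay at 19.8% of those with and 8.26% of those without RBFOX2 positions. With 100 nt these were 48.2%, 35.0%, 52.6% and 18.5%, and the library ratio was 2.40.
With shared positions kept, enzyme-only positions lay at 26.2% of hexamers and at 47.4% of those with RBFOX2 positions, the library ratio was 2.23 and the enzyme-only near to flank ratio 0.970 (0.902 to 1.04).
With at least 2 converted reads, RBFOX2 positions lay at 12.5% and enzyme-only positions at 2.73%, with 242 and 32 hexamers of one library alone. Enzyme-only positions lay at 10.04% with and 1.69% without RBFOX2 positions. The library ratio was 8.19 (13.8 after A), the enzyme-only near to flank ratio was 0.796 (0.604 to 1.04), and RBFOX2 near to flank ratios were 1.72, 2.12 (coding) and 2.02 (with a neighbour). The highest variant ratio was 3.89.
With 3'UTR annotation taken before coding sequence, 312 hexamers had enzyme-only positions alone, the library ratio was 2.36, and enzyme-only positions lay at 16.2% of hexamers without RBFOX2 positions. Bins of 20 nt gave a 3' to 5' ratio of 1.18. In genes of at most 500 reads, 19.8% of RBFOX2 positions had at least 2 converted reads.
The ratios of the variant hexamers were not run with other windows, and paired hexamers not with a spacing of 500 nt. No paired analysis was possible because each group was 1 library and the labels give the libraries different replicate numbers. Precision is limited by single converted reads, by gene reads that are not read depth at the position, and by the single library analysed per group.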
